A study of Macaca mulatta with 33 samples.

Results

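The comparison described here asked what the synthetic progestin R5020 did to the transcriptome of the rhesus macaque corpus luteum when it was given together with the steroid synthesis inhibitor trilostane, 1 day after human chorionic gonadotropin (hCG) had been started. It used 16 of the 33 Affymetrix Rhesus Genome arrays of the series, all of whole dissected luteal tissue of luteal day 10 from adult females. 4 arrays were of females given hCG, trilostane (TRL) and R5020, and 4 of females given hCG and TRL. The other 8 were of untreated females, the baseline of the study. The probe sets considered were those with 1 gene symbol, 17162 of the 27850 that passed a filter on dim signals, which stood for 10290 genes. hCG was begun on luteal day 9 in rising doses, and TRL and R5020 were given alongside it. Tissue of females given hCG alone at day 10 and of the day 15 groups (6 days of hCG) was used only where named.

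The corpus luteum is the gland that forms from the ovulated follicle and secretes progesterone. Chorionic gonadotropin from an early embryo acts on its luteinizing hormone receptors and keeps it from regressing, and giving hCG to non-pregnant females imitates that rescue. Trilostane blocks 3-beta-hydroxysteroid dehydrogenase, the enzyme that converts pregnenolone to progesterone, and R5020 (promegestone) activates the progesterone receptor, a nuclear receptor that luteal cells carry. Putting back a progestin while the tissue's own progesterone synthesis is blocked separates what progesterone receptor signalling does from what other steroids do.

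The R5020 and TRL groups of day 10 were not hybridised in the same array set. The array names put all 4 R5020 arrays in set 2, with untreated replicates 6 to 9, and all 4 TRL arrays in set 1, with untreated replicates 1 to 4, whose titles also mark them as a reanalysis. The untreated arrays therefore served as the link: each treated array was set against the mean of the untreated arrays of its own set, which is called the own-set difference, and the R5020 effect is the own-set difference with R5020 minus that with TRL. All values are log2 intensities, centred on each array's median. The untreated tissue itself differed between the sets. Of 27850 probe sets, 1402 were higher (5.03%) and 222 lower (0.797%) in set 2 than in set 1 at a Benjamini-Hochberg adjusted p under 0.05 in limma, 5.83% in all, and 62% had a positive difference, and whether animals, RNA handling or hybridisation lay behind this was not tested. That difference enters the R5020 effect with the opposite sign. Leaving out untreated replicate 1, 3, 4, 6, 7 or 9 brought the 1624 calls to between 462 (without replicate 6) and 1060. Without centring the split was 573 higher and 217 lower, and with quantile normalization 382 higher and 195 lower. The labels do not say whether each sample came from a separate animal, and all p-values here rest on the spread among the arrays of a group, which may be partly technical. The titles of the day 10 arrays of hCG alone carry the reanalysis mark too, and those of the TRL arrays do not. What was reanalysed is not stated, so at day 10 within set 1 the mark cannot be told apart from TRL.

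The tissue carried its defining genes in all 16 arrays. STAR, which moves cholesterol into the mitochondrion for steroid synthesis, lay between 14.68 and 14.78 in the R5020 arrays, 14.56 and 14.69 in the TRL arrays and 14.43 and 14.65 in the untreated ones. HSD3B2, the enzyme that trilostane blocks, lay between 13.32 and 13.82 with R5020, 13.29 and 14.08 with TRL and 12.97 and 13.72 in untreated tissue. Its probe set cannot be told apart from near-identical copies of the enzyme. Since whole tissue was measured, fewer cells of a type and less RNA per cell cannot be told apart in any of the values below.

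No probe set passed the test for the R5020 effect. The lowest adjusted p over 27850 probe sets was 0.998 (0% called), and no alternative setting brought a probe set past the threshold. At an unadjusted p under 0.05, 649 probe sets were higher with R5020 (2.33%) and 360 lower (1.29%), 1009 in all (3.62%), fewer than the 1392.5 that make up 0.05 of the probe sets tested. Among probe sets with 1 symbol 441 were higher and 171 lower. Values above 0 made up 58% of probe sets and 59% of the 10290 genes, with a median of 0.04 over genes. The own-set differences of the R5020 and TRL arrays did not overlap in 5.67% of probe sets in the direction of R5020 higher and in 2.94% in the direction of R5020 lower. The values that follow describe single genes and gene lists below the threshold of the test, and the counts stand beside these shares.

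Genes induced by interferon made up most of the largest positive values. Of the 12 genes with the largest positive R5020 effect among those with an unadjusted p under 0.05 and own-set differences that did not overlap, 8 were members of the interferon list: IFI44, XAF1, IFIT3, IFIH1, MX1, IFIT1, ISG15 and HERC6. IFI44, an interferon-induced cytoplasmic protein, stood at 10.31, 9.72, 9.63 and 10.47 in the R5020 arrays and 9.52, 9.15, 9.49 and 9.21 in the untreated arrays of set 2, and at 9.78, 10.49, 9.75 and 10.03 in the TRL arrays and 10.58, 11.33, 10.94 and 10.94 in the untreated arrays of set 1. The R5020 arrays were all above their own untreated arrays, and the TRL arrays all below theirs, while the R5020 and TRL arrays themselves covered the same range. Its R5020 effect was 1.63 ± 0.30 (SE) on the log2 scale, a 3.09-fold ratio, with a 95% interval of 0.98 to 2.27 and an unadjusted p of 6.9e-05. Both of its probe sets had the same sign.

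IFIT3, which partners other IFIT proteins that bind viral RNA, stood at 11.75, 11.59, 11.29 and 11.73 with R5020, against 11.33, 11.25, 11.54 and 11.29 in the untreated arrays of set 2. In set 1 it stood at 11.22, 11.43, 11.31 and 11.65 with TRL and at 11.65, 12.74, 12.22 and 12.09 in untreated tissue. Its R5020 effect was 1.01 ± 0.26, and again the TRL arrays lay below the untreated arrays of their set, except that TRL replicate 4 and untreated replicate 1 were level, while the R5020 and untreated arrays of set 2 overlapped. IFIH1, a sensor of double-stranded RNA, had an R5020 effect of 1.00 ± 0.26. MX1, an antiviral GTPase, had one of 1.39 ± 0.37. ISG15, a ubiquitin-like protein that is attached to other proteins, reached 1.55 ± 0.53 with the widest spread of these genes in the untreated arrays of set 1, which read 8.81, 11.14, 10.32 and 9.75.

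The whole interferon list followed the same pattern. Of its 30 genes measured, 29 had a positive R5020 effect, where 58% of all probe sets did, with a median of 0.73 against 0.04 over all genes. An unadjusted p under 0.05 was found for 12, all higher, against 2.33% of probe sets higher. The own-set differences did not overlap in 17, all with R5020 higher, against 5.67% of probe sets. The exception to the positive sign was CXCL10, a chemokine named after its value was seen, at -0.002 ± 0.83. The list's median own-set difference was 0.05 with R5020 and -0.69 with TRL. With R5020 18 of the 30 genes were above their untreated arrays, where 49.3% of all probe sets were, and with TRL 2 of the 30, where 41.8% were. 4 of its genes fell in TRL tissue against its untreated arrays at an adjusted p under 0.05 (1.99% of probe sets called), namely IFI44 (-0.94), IFIT3 (-0.77), IFIT1 (-1.24) and PARP9 (-1.02), the last named after its value was seen. In R5020 tissue against its own untreated arrays none passed (0.761% called). The median between the untreated tissues of set 2 and set 1 was -0.47. With the R5020 and TRL arrays set against each other directly, with no term for the array set, 27 of the 30 genes were higher with R5020, where 7802 of all 10290 genes and 67.6% of probe sets were, and the median was 0.24 against 0.16 over all genes. With array set as a random block it was 0.48.

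The mean level of the 30 interferon genes per array showed where that pattern lay. It was 9.19, 9.26, 9.03 and 9.20 with R5020 and 9.00, 9.23, 9.18 and 8.85 in the untreated arrays of set 2. In set 1 it was 8.76, 9.03, 8.64 and 9.21 with TRL and 9.19, 10.13, 9.65 and 9.26 in untreated tissue. With hCG alone, also in set 1, it was 9.19, 9.09, 8.82 and 9.25. Against hCG alone the list's median with TRL was -0.15, where that of all genes was -0.11. In that comparison 4 of the 30 genes were higher with TRL, where 2931 of all 10290 genes were. Untreated replicate 2 of set 1 was the highest of the 16 arrays, with replicate 3 next to it. The median R5020 effect was 0.50 when replicate 2 was left out and 0.94 when replicate 1 was. Macrophage markers had the same sign: 11 of 12 measured had a positive R5020 effect with a median of 0.26, none with an unadjusted p under 0.05. That sign depended on the untreated arrays. The median was -0.14 in the direct comparison and -0.13 in the additive fit of 33 arrays, with 4 of 12 positive in each. It was 0.0060 with array set as a random block, 0.012 without untreated replicate 6 and 0.57 without replicate 4. Their mean level ranged from 8.99 to 9.50 with R5020 and 8.54 to 9.71 in the untreated arrays of set 2, and from 8.84 to 9.91 with TRL and 8.70 to 10.12 in the untreated arrays of set 1. Lymphocyte markers had 3 of 7 positive values with a median of -0.03, and mean levels of 8.47 to 8.84 with R5020 and 8.44 to 9.00 in its untreated arrays, and of 8.67 to 9.35 with TRL and 8.28 to 9.10 in those of set 1. The part of these cells in the interferon values was not tested.

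**Figure D1:**
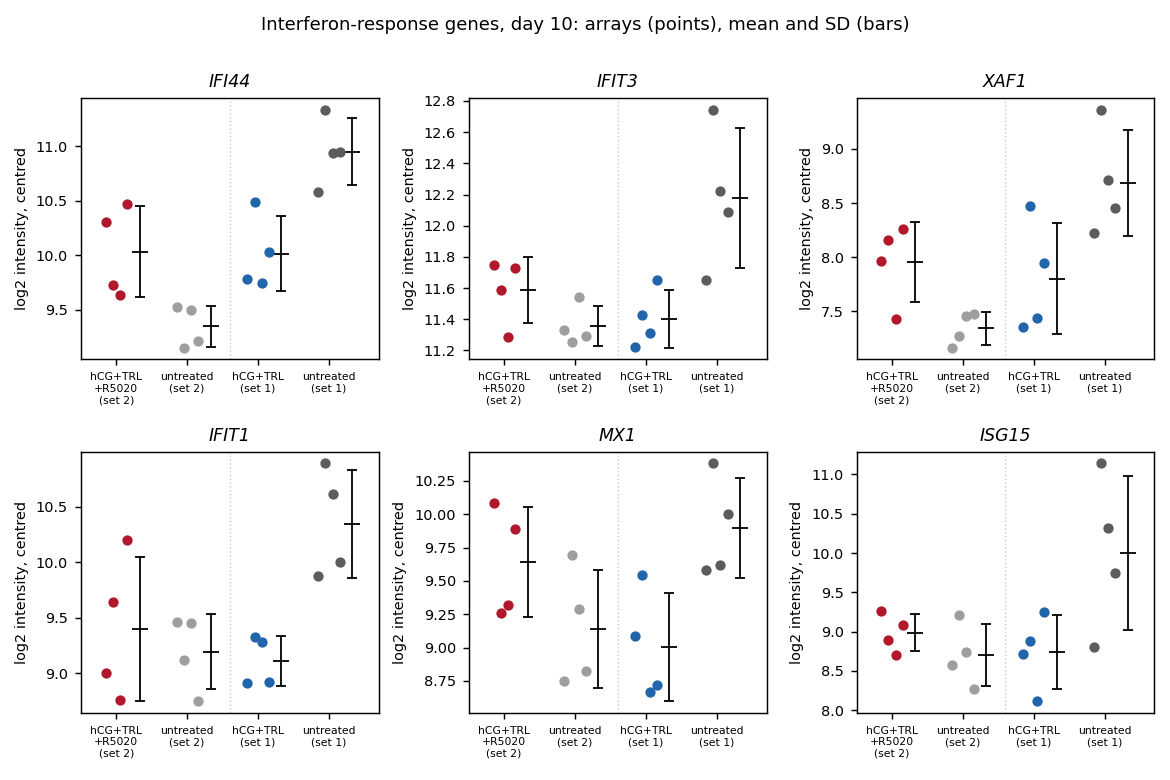
Centred log2 intensity of 6 interferon-response genes in each day 10 array (points), with the mean and SD of each group of 4 arrays beside them, for hCG+TRL+R5020 and untreated tissue of array set 2 and hCG+TRL and untreated tissue of array set 1. The R5020 and TRL arrays overlap in all 6 panels, and the untreated arrays of set 1 have the highest mean in each.

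The other 4 of the 12 largest positive values belonged to no list used here. SCIN, an actin-severing protein, had an R5020 effect of 1.59 ± 0.63 (0.47 by its other probe set), and PARP15, an ADP-ribosyltransferase, had 1.10 ± 0.51 (0.72 without untreated replicate 6). HOXA9, a homeobox transcription factor, reached 1.77 ± 0.79, and PNLIPRP3, a lipase of the pancreatic family, 1.85 ± 0.65, the largest of the 12. HOXA9 and PNLIPRP3 were dim genes, with group means of 6.99 and 6.58 with R5020 and 5.99 and 5.69 with TRL, around the filter level of 6.20. All 12 genes were lower in the untreated tissue of set 2 than in that of set 1, 4 of them at an adjusted p under 0.05. Set against TRL directly, 11 of the 12 were higher with R5020, by up to 1.00, and PARP15 was at -0.04.

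FOS was the largest of the 12 negative values chosen by the same rule, and the only immediate early gene among them. FOS, a subunit of the transcription factor AP-1 that responds to many stimuli within minutes, read 7.35, 7.18, 7.24 and 7.46 in the R5020 arrays, against 9.82, 8.24, 8.74 and 8.48 in the untreated arrays of set 2. In set 1 it read 7.94, 10.04, 7.96 and 8.15 with TRL and 9.75, 7.56, 6.97 and 8.23 in untreated tissue. The R5020 arrays were the lowest of their set without overlap and were also below all 4 TRL arrays, whereas the ranges of TRL and untreated arrays of set 1 overlapped in part, with TRL replicate 2 the highest and 2 untreated arrays below every TRL array. The R5020 effect was -1.90 ± 0.77, a 0.267-fold ratio, with an interval of -3.54 to -0.27 and an unadjusted p of 0.025. TRL replicate 2 was far above the others, and without it the value was -1.40.

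JUNB, another AP-1 subunit, had the smallest unadjusted p of the immediate early list, 0.0053. It read 8.51, 8.60, 8.63 and 8.55 with R5020 and 9.51, 9.00, 9.29 and 8.99 in the untreated arrays of set 2, and 8.42, 8.79, 8.60 and 8.59 with TRL and 8.97, 8.51, 8.34 and 8.47 in those of set 1. R5020 and TRL arrays lay at the same level, at 8.57 ± 0.05 and 8.60 ± 0.15 (SD, n = 4 each), and the untreated tissue of set 2 was 0.62 above that of set 1 (adjusted p = 0.021). Its R5020 effect was -0.65 ± 0.20, and the direct difference was -0.03. NR4A1, an orphan nuclear receptor of luteal cells, fell by 1.29 with R5020 against its untreated arrays (adjusted p = 0.036, all 4 R5020 arrays below all 4 untreated) and stood at -0.69 with TRL (adjusted p = 0.20), so the R5020 effect was -0.60 ± 0.37 (-0.37 without untreated replicate 6). DUSP5, a phosphatase that inactivates ERK, went the other way: it fell by 2.22 with TRL (adjusted p = 0.023) and stood at -1.18 with R5020, an effect of 1.04 ± 0.65 that was 0.52 without untreated replicate 2.

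The immediate early list as a whole was divided. Of 23 genes measured, 11 had a positive R5020 effect and the median was -0.01. In the direct comparison 17 of 23 were positive with a median of 0.28, where 7802 of all 10290 genes were, with a median of 0.16. With array set as a random block 15 of 23 were positive with a median of 0.20, where 67.5% of all probe sets were. FOS and JUNB had an unadjusted p under 0.05, both lower. All 23 genes were below their untreated arrays with R5020, with a median of -0.36, and 20 were below theirs with TRL, with a median of -0.42. Of all probe sets, 49.3% were above their untreated arrays with R5020 and 41.8% with TRL. NR4A1 with R5020 and DUSP5 with TRL were the members that passed the test, 1 in each comparison.

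The remaining genes among the 12 largest negative values came from no common list. PRICKLE2, a planar cell polarity protein, had the smallest p of them. It read 7.80, 8.03, 8.53 and 7.65 with R5020 and 9.06, 8.25, 9.22 and 8.74 in the untreated arrays of set 2, and 8.69, 7.76, 8.07 and 8.86 with TRL and 7.88, 7.29, 7.57 and 7.73 in untreated arrays of set 1. Relative to its own untreated mean every R5020 array was lower and every TRL array higher, an R5020 effect of -1.55 ± 0.37 with an unadjusted p of 8e-04.

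SFRP1, a secreted WNT antagonist, had an R5020 effect of -1.03 ± 0.29. Its arrays read 9.29, 8.26, 8.59 and 8.60 with R5020 against 8.28, 8.50, 8.78 and 8.46 with TRL, so the treated groups overlapped, and the effect came with untreated tissue that was 1.21 higher in set 2 than in set 1 (adjusted p = 0.0071). The direct difference was 0.18, the opposite sign. CLSPN, a checkpoint adaptor, had an R5020 effect of -1.63 ± 0.55. It fell by 2.50 with R5020 against its untreated arrays (adjusted p = 0.011), where it read 9.22, 8.83, 8.81 and 9.46 against 12.19, 10.57, 12.44 and 11.11, and stood at -0.86 with TRL (adjusted p = 0.28).

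SLC22A16, a carnitine transporter, had -1.64 ± 0.57 and PON3, a lactonase of the paraoxonase family, -1.18 ± 0.42. OTULINL, ANO3, F11R, CRMP1, HEBP2 and MTCL1 lay between -1.50 and -0.77. F11R, a junctional adhesion molecule, rose by 0.82 with TRL against its untreated arrays (adjusted p = 0.045) and stood at -0.10 with R5020. All 12 genes were higher in the untreated tissue of set 2 than of set 1, 3 of them at an adjusted p under 0.05, and in a direct comparison 11 of the 12 were lower with R5020, SFRP1 being the exception.

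**Figure D2:**
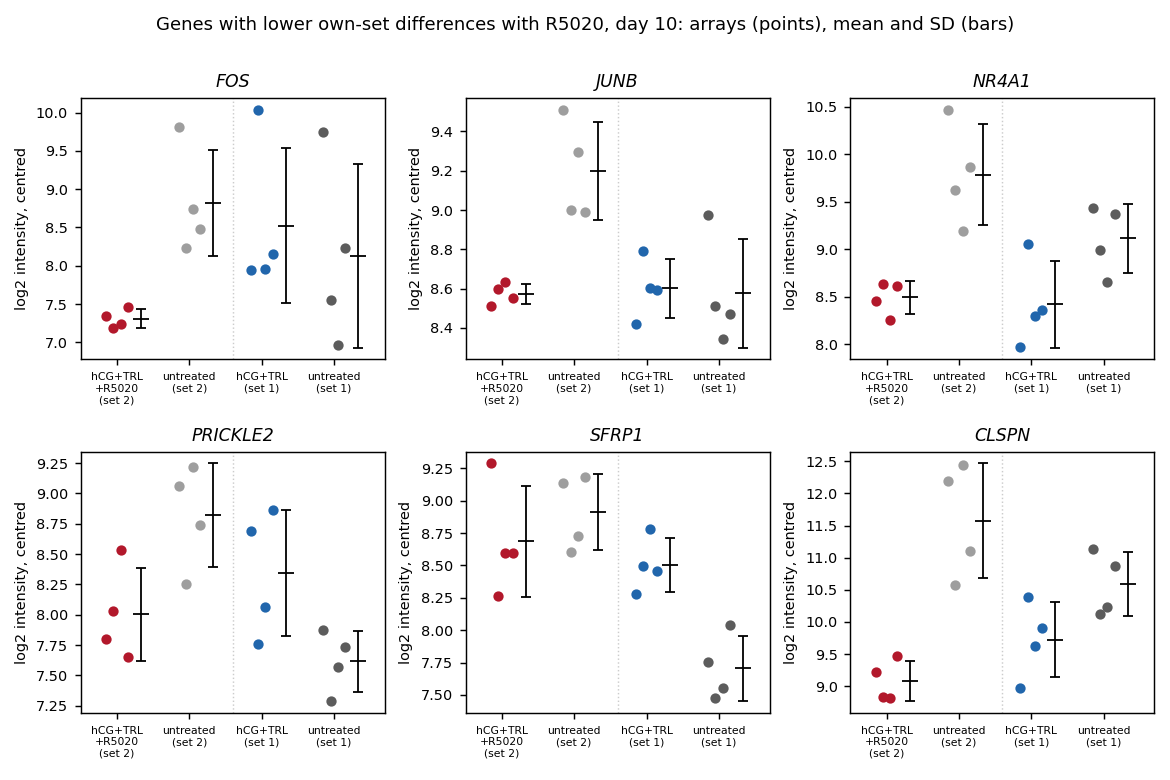
Centred log2 intensity of 3 immediate early genes (FOS, JUNB, NR4A1) and of PRICKLE2, SFRP1 and CLSPN in each day 10 array (points), with the mean and SD of each group of 4 arrays, in the same order of groups. The R5020 arrays of FOS lie between 7.18 and 7.46, below every TRL array, while for JUNB and SFRP1 the R5020 and TRL arrays overlap and the untreated arrays of set 2 are above those of set 1.

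Genes that respond to progestins and glucocorticoids were divided at day 10. Of 27 measured, 11 had a positive R5020 effect, the median was -0.05, and 1 had an unadjusted p under 0.05. The median was 0.08 in the direct comparison, with 16 of 27 positive, where that of all genes was 0.16 with 7802 of 10290 positive. With array set as a random block it was 0.07, with 19 of 27 positive, where 67.5% of all probe sets were. Without untreated replicate 4 the list's median was 0.0063. The gene with an unadjusted p under 0.05 was KLF15, a transcription factor that glucocorticoid and progesterone receptors induce in other tissues. It read 9.41, 8.79, 8.79 and 8.87 with R5020 and 8.74, 8.67, 8.61 and 8.58 in the untreated arrays of set 2, and 9.17, 9.24, 9.17 and 8.91 with TRL and 8.46, 8.19, 8.26 and 8.56 in those of set 1. Both treated groups lay above their untreated arrays without overlap. It rose by 0.76 with TRL (adjusted p = 0.013) and stood at 0.31 with R5020 (adjusted p = 0.40), an R5020 effect of -0.44 ± 0.19.

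FKBP5, a co-chaperone of steroid receptors and a widely used readout of progestin and glucocorticoid action, read 7.67, 7.52, 8.90 and 7.61 with R5020 and 7.18, 7.31, 7.85 and 7.10 in the untreated arrays of set 2. With TRL it read 8.33, 7.61, 8.40 and 8.34, and in the untreated arrays of set 1 8.54, 7.40, 7.37 and 6.92. R5020 replicate 3 was high and TRL replicate 2 low, and the groups overlapped. The effect of R5020 on it was -0.05 ± 0.48, with an interval of -1.08 to 0.98, so that a change of up to about that size in either direction was not detectable with 4 arrays per group. PER1, a clock gene with a glucocorticoid response element, stood at -0.39 ± 0.24 (0.40 in the direct comparison, -0.26 without untreated replicate 6) and SGK1, a kinase induced by corticosteroids, at -0.33 ± 0.21 (-0.19 without R5020 replicate 1), with opposite signs at the 2 probe sets of SGK1. The members that passed in R5020 tissue against its own untreated arrays, both named after their values were seen, were MT2A, a metallothionein, which rose by 1.00 (adjusted p = 0.023), and IRS2, an insulin receptor substrate, which rose by 1.48 (adjusted p = 0.034).

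PGR, the progesterone receptor itself, read 6.62, 6.49, 6.43 and 6.70 with R5020 and 7.22, 6.32, 7.15 and 6.59 in untreated tissue of set 2. It read 6.52, 7.18, 7.76 and 7.68 with TRL and 7.13, 6.97, 7.04 and 6.90 in untreated tissue of set 1. TRL replicates 2 to 4 were above every R5020 array, and TRL replicate 1 lay within their range. The R5020 effect was -0.54 ± 0.34, with an interval of -1.25 to 0.18. PGRMC1, a membrane-associated progesterone-binding protein, stood at 0.10 ± 0.22 and NR3C1, the glucocorticoid receptor, at 0.01 ± 0.18. In all, 5 of 8 steroid and gonadotropin receptor genes measured had a positive value, none with an unadjusted p under 0.05.

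TMEFF2, a transmembrane protein with follistatin-like domains, was the 1 gene that fell with trilostane against hCG alone within set 1 (0.00359% of probe sets called). Its levels were 5.26, 4.90, 4.98 and 5.53 with TRL and 7.07, 6.43, 6.67 and 7.54 with hCG alone, without overlap, a fall of 1.76 (adjusted p = 0.017). That call was lost when hCG replicate 1 or 4 or TRL replicate 2 was left out, and the count of 1 went to 75 without TRL replicate 1, 13 without TRL replicate 3, and 2 and 3 without hCG replicates 2 and 3. With R5020 it read 6.64, 5.41, 5.76 and 5.82, against 6.56, 6.48, 7.01 and 6.33 in the untreated arrays of set 2, and those of set 1 lay between 6.20 and 7.03. This gave an R5020 effect of 0.76 ± 0.37, with an interval of -0.02 to 1.54 and an unadjusted p of 0.056. The same TRL arrays enter the fall against hCG alone and the R5020 effect, so low values in them favour a positive effect. In the comparison with hCG alone, the reanalysis mark of the hCG arrays cannot be told apart from trilostane. The TRL levels were below the filter level of 6.20, where an array measures the size of a difference poorly.

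**Figure D3:**
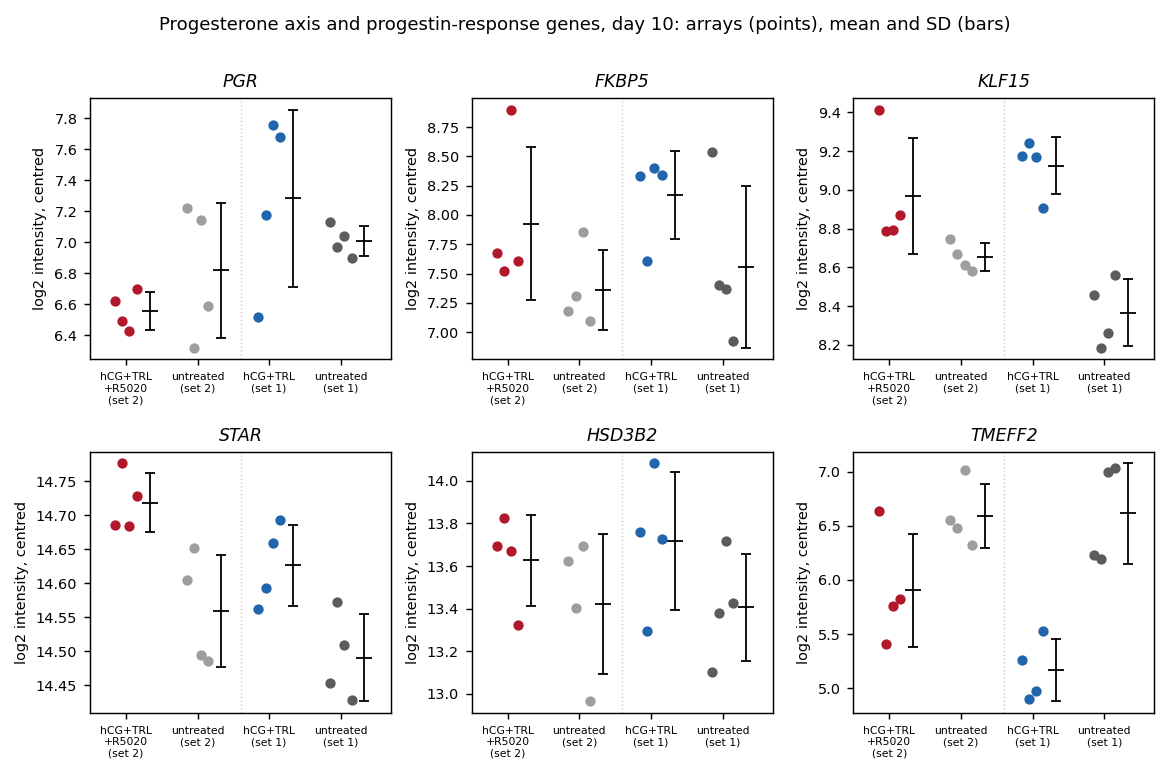
Centred log2 intensity of the progesterone receptor gene PGR, the progestin-response genes FKBP5 and KLF15, the steroidogenic genes STAR and HSD3B2, and TMEFF2 in each day 10 array (points), with the mean and SD of each group of 4 arrays. KLF15 is above its untreated arrays in both treated groups, PGR is between 6.43 and 6.70 with R5020, and TMEFF2 is lowest with TRL.

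The genes of progesterone synthesis had small R5020 effects. Of 12 measured, 8 had a positive R5020 effect, none with an unadjusted p under 0.05, and the median was 0.06. STAR had an R5020 effect of 0.02 ± 0.08, the narrowest interval of the named genes, from -0.15 to 0.20. Its levels lay near the highest value measured, 15.12, and whether differences are fully read at that level was not tested. HSD3B2 had -0.10 ± 0.26. Among the enzymes downstream, CYP19A1, the aromatase that makes estrogens, read 13.28, 13.57, 13.66 and 13.35 with R5020 and 11.77, 13.67, 13.26 and 10.42 in the untreated arrays of set 2. It read 13.85, 12.54, 12.84 and 12.72 with TRL and 13.01, 13.11, 13.20 and 12.25 in those of set 1. The R5020 effect of 1.09 ± 0.74 leaned on untreated replicates 6 and 9, which were low, and was 0.47 without replicate 9. CYP17A1, which makes androgens, stood at 1.36 with R5020 (adjusted p = 0.059) and 1.10 with TRL (adjusted p = 0.083) against untreated tissue, an effect of 0.26 ± 0.44 that was 0.022 without R5020 replicate 4. HSD11B1, which regenerates cortisol, stood at 0.31 ± 0.23 (0.090 without TRL replicate 2).

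CYP11B1, the 11-beta-hydroxylase that completes cortisol synthesis in the adrenal, read 10.21, 9.72, 9.47 and 10.83 with R5020 and 7.93, 8.43, 7.90 and 8.42 in the untreated arrays of set 2. It read 9.82, 10.29, 11.88 and 9.75 with TRL and 8.17, 6.63, 6.04 and 8.76 in those of set 1. In both sets the treated arrays were above the untreated ones without overlap. It rose by 3.04 with TRL (adjusted p = 0.014) and stood at 1.89 with R5020 (adjusted p = 0.15), an R5020 effect of -1.15 ± 0.78 that was -0.66 without TRL replicate 3. The wide spread of the set 1 arrays set that error, and its probe set may also read a near-identical copy.

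Cholesterol synthesis genes had mostly negative values that changed with the treatment of array set and with single arrays. Of 19 measured, 3 had a positive R5020 effect and the median was -0.23, none with an unadjusted p under 0.05. Both treated groups stood above their untreated tissue, with medians of 0.41 with R5020 and 0.55 with TRL. DHCR7, the last enzyme of the pathway, rose by 1.58 with TRL (adjusted p = 0.0067) and stood at 1.01 with R5020 (adjusted p = 0.086), an R5020 effect of -0.57 ± 0.36 (-0.31 without untreated replicate 7). SREBF2, the transcription factor that drives the pathway, stood at -0.31 ± 0.18 (-0.20 without untreated replicate 6). The untreated tissue of set 2 was above that of set 1 in all 19 genes, with a median of 0.47, and in the direct comparison the sign turned: the list's median was 0.30 and 15 of 19 genes were higher with R5020, a share near that of all genes. With array set as a random block it was 0.13, and in the additive fit of 33 arrays it was -0.064 with 9 of 19 positive. Without R5020 replicate 1 it was -4.8e-05.

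Most cell cycle genes had a positive R5020 effect, all below the threshold of the test. Of 23 measured, 21 had a positive effect, where 58% of all probe sets did, with a median of 0.29. An unadjusted p under 0.05 was found for 6, all higher, against 2.33% of probe sets higher. TOP2A, the topoisomerase of dividing cells, had 0.88 ± 0.32 and CENPF, a kinetochore protein, 0.86 ± 0.32. CCNB2, a mitotic cyclin, read 8.45, 7.86, 7.74 and 8.39 with R5020 and 7.83, 8.51, 7.97 and 7.87 in the untreated arrays of set 2. It read 7.64, 7.58, 7.20 and 7.78 with TRL and 8.20, 8.24, 8.56 and 7.84 in those of set 1. The TRL arrays were all below their untreated arrays, while R5020 and untreated arrays of set 2 overlapped, and the effect was 0.73 ± 0.29. The list's median own-set difference was 0.01 with R5020 and -0.32 with TRL, and the untreated sets differed by -0.06. In the direct comparison the median was 0.25, with 18 of 23 genes higher with R5020, where 7802 of all 10290 genes were.

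Matrix genes also leaned towards R5020. Of 29 genes for matrix proteins and proteases, 22 had a positive effect, where 58% of all probe sets did, with a median of 0.20. An unadjusted p under 0.05 was found for 3, all higher, against 2.33% of probe sets higher. The median was 0.11 without TRL replicate 1, 0.33 without untreated replicate 4 and 0.49 in the direct comparison. Between the untreated tissues of set 2 and set 1 it was 0.24. The 3 genes with that p were LAMA2 and LAMB1, laminin chains of basement membranes, and LOX, which cross-links collagen. LAMA2 read 11.40, 10.76, 11.21 and 10.91 with R5020, and the untreated arrays of set 2 lay between 10.76 and 11.20. It read 10.41, 10.42, 10.05 and 10.11 with TRL and 10.90, 10.98, 10.70 and 10.64 in those of set 1. All 4 R5020 arrays were above all 4 TRL arrays, and the TRL arrays were below their untreated arrays. The effect of R5020 was 0.63 ± 0.21 for LAMA2 (0.11 by its other probe set), 0.50 ± 0.19 for LAMB1 and 0.50 ± 0.20 for LOX. The direct differences of these genes were 0.82, 0.74 and 0.40. Markers of endothelial cells, whose basement membranes hold laminins, were positive in 11 of 11 genes with a median of 0.13, none with an unadjusted p under 0.05. The median was 0.023 without untreated replicate 8, and 7 of 11 were positive after quantile normalization. In the direct comparison it was 0.51, where that of all genes was 0.16. Untreated tissue of set 2 minus set 1 had a median of 0.40 over these markers. Their mean level ranged from 10.11 to 10.29 with R5020 and 10.04 to 10.48 in the untreated arrays of set 2, and from 9.54 to 9.83 with TRL and 9.73 to 10.07 in those of set 1. Pericyte and smooth muscle markers had 6 of 7 positive values with a median of 0.17 (0.070 without TRL replicate 1, 0.60 in the direct comparison). Fibroblast markers had 7 of 11 with a median of 0.21 (0.12 without TRL replicate 1, 0.052 in the direct comparison). The medians of untreated set 2 minus set 1 were 0.50 for the pericyte and smooth muscle markers and 0.16 for the fibroblast markers. The part of these cells in the matrix values was not tested.

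Among the lists not yet described, oxidative phosphorylation subunits had 14 of 16 positive values with a median of 0.17 (0.11 without TRL replicate 2), and NDUFV2, a complex I subunit, had the smallest p with 0.30 ± 0.14 (-0.04 by its other probe set). MHC class II genes had 7 of 8 positive values with a median of 0.27, which was -0.03 in the direct comparison (3 of 8 positive), 0.065 with array set as a random block and 0.073 without untreated replicate 2. Of these the largest was MAMU-DRA, the alpha chain of the class II DR molecule, at 0.60 ± 0.41 (0.35 without untreated replicate 2). Its untreated arrays of set 2 read 11.20, 12.22, 11.30 and 11.26, so that replicate 7 stood apart. Ovulatory and EGF family genes had 4 of 16 positive values with a median of -0.12, and cAMP signalling genes 5 of 19 with a median of -0.19. Without R5020 replicate 1 the ovulatory median was -0.052, and without untreated replicate 3 the cAMP median was -0.11. In the direct comparison the medians were 0.14 with 10 of 16 ovulatory genes positive and 0.073 with 12 of 19 cAMP genes positive. That of all genes was 0.16, with 7802 of 10290 positive, and why the signs turned was not tested. With array set as a random block the ovulatory and cAMP medians were -0.0028 and -0.0047. None of the 16 ovulatory or 19 cAMP genes had an unadjusted p under 0.05.

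**Figure D4:**
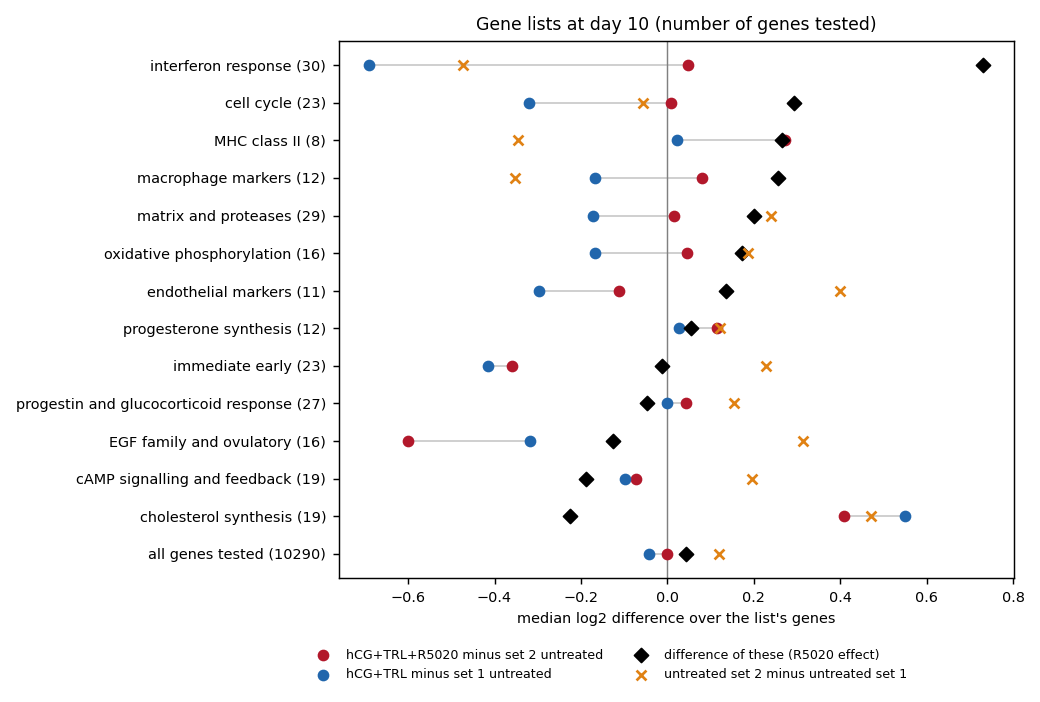
Median log2 difference over the genes of 13 lists and over all 10290 genes at day 10: the own-set difference of hCG+TRL+R5020 and of hCG+TRL tissue (circles joined by a line), the R5020 effect (diamonds), and untreated tissue of set 2 minus set 1 (crosses). The interferon list has the highest R5020 effect, 0.73, and a TRL value of -0.69, and the cholesterol synthesis list has the lowest, -0.23, with both treated groups above 0.

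Each treated group differed from its own untreated arrays by hCG and TRL together, and the R5020 group also by R5020. With R5020, 90 probe sets rose and 122 fell (0.761% called, of which 0.323% higher and 0.438% lower). With TRL, 214 rose and 341 fell (1.99% called, 0.768% higher and 1.22% lower), and without centring this split was 249 and 282, or 320 and 259 after quantile normalization. The counts depended on single arrays. Leaving out any 1 of the 8 arrays of the R5020 comparison moved its count by over 1.5 times, to between 62 (without R5020 replicate 1) and 409 (without untreated replicate 7). The TRL count went to 212, 262 or 317 without untreated replicate 1, 2 or 3, and to 285 or 254 without TRL replicate 1 or 3. That more probe sets passed with TRL is not a test of a difference between the groups. The comparisons shared no array, and 139 probe sets passed in both, 71 higher and 68 lower, all in the same direction in each. They were 65.6% of those that passed with R5020 and 25.0% of those with TRL.

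Among the genes that passed in both, those that rose included enzymes and signalling proteins. USP53, a deubiquitinase family member of cell junctions, read 8.23, 8.80, 8.40 and 8.53 with R5020 against 7.05, 6.54, 7.12 and 6.25 in untreated tissue, and 9.56, 9.00, 9.62 and 9.25 with TRL against 7.25, 7.48, 7.39 and 7.37. It rose by 1.75 with R5020 (adjusted p = 0.001) and by 1.98 with TRL (adjusted p = 4.2e-04), with no overlap between treated and untreated arrays in either set. TTC19, an assembly factor of respiratory complex III, rose by 2.05 and 2.29, and ALAS1, which starts heme synthesis, by 1.61 and 1.73. PLAUR, the urokinase receptor, rose by 1.59 with R5020 and 1.67 with TRL. PLCG2, a phospholipase C, rose by 2.45 and 2.41, and SYTL3, an effector of vesicle transport, by 2.10 and 2.03. The adjusted p of these 5 genes was between 0.033 and 0.045 with R5020 and between 0.014 and 0.030 with TRL.

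HTR2B, a serotonin receptor, fell in both. It read 6.30, 6.32, 7.73 and 7.94 with R5020 against 9.52, 8.56, 9.85 and 10.19 in untreated tissue, and 6.29, 6.22, 5.61 and 5.69 with TRL against 8.58, 9.06, 8.95 and 9.29. R5020 replicates 3 and 4 were above replicates 1 and 2, and all treated arrays were below the untreated arrays of their set. It fell by 2.46 with R5020 (adjusted p = 0.011). It fell by 3.02 with TRL (adjusted p = 0.0016). The R5020 effect was 0.56 ± 0.55 (0.24 without untreated replicate 7). The next 5 genes also fell in both. OPN3, an opsin, changed by -2.62 with R5020 and -2.26 with TRL. BTC, betacellulin, an EGF receptor ligand, changed by -1.67 with R5020 and -1.69 with TRL. SPHKAP, an anchor of protein kinase A, changed by -1.91 with R5020 and -1.97 with TRL. STK26, a germinal centre kinase, and STK17B, a kinase linked to apoptosis, changed by -1.89 and -1.49 with R5020, against -2.15 and -2.16 with TRL. ADM, adrenomedullin, a vasodilator peptide, changed by -1.44 with R5020 (adjusted p = 0.0081) and -1.03 with TRL (adjusted p = 0.017). None of the genes that passed in both and are named here had an R5020 effect with an unadjusted p under 0.05. They were chosen for passing in both in the same direction, which favours a small R5020 effect. Their small effects are therefore no separate test of whether R5020 changed them.

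Genes that passed in 1 comparison and not in the other are named here by the size of their R5020 effect. That effect is the difference of the same 2 comparisons, so passing in 1 of them favours a large value. The values below describe these genes and are no separate test of them, and none passed the test over all probe sets. TNS4, a tensin of focal adhesions, rose by 2.31 with TRL (adjusted p = 0.003) and stood at 0.87 with R5020, where it read 6.79, 8.34, 6.73 and 6.25, so that replicate 2 was at the level of the TRL arrays (8.32, 8.17, 7.79 and 7.72). TNS4 had an R5020 effect of -1.45 ± 0.46, with an unadjusted p of 0.0067. SLC24A3, a sodium-calcium exchanger, rose by 2.00 with TRL (adjusted p = 0.023), with an R5020 effect of -1.66 ± 0.58. The arrays of both treated groups covered like ranges, at 8.62 ± 0.80 with R5020 and 8.76 ± 0.79 with TRL (SD, n = 4 each), and its untreated means were 8.28 in set 2 and 6.76 in set 1. RCAN1, an inhibitor of calcineurin, rose by 2.51 with TRL and had an effect of -1.17 ± 0.70 (-0.70 without R5020 replicate 4).

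CH25H, which makes 25-hydroxycholesterol, passed in the R5020 comparison: it fell by 2.33 with R5020 (adjusted p = 0.0091) and stood at -1.21 with TRL (adjusted p = 0.084). Its R5020 effect was -1.12 ± 0.48, yet the treated levels were 7.77 ± 0.37 with R5020 and 7.82 ± 0.61 with TRL (SD, n = 4 each). SPON2, a secreted matrix protein, read 11.12, 9.47, 9.88 and 10.82 with R5020 against 10.51, 10.52, 10.33 and 10.44 in untreated tissue. It read 9.20, 9.47, 8.78 and 8.83 with TRL against 10.30, 10.34, 9.82 and 10.79, and all 4 TRL arrays were below their untreated arrays. It fell by 1.24 with TRL (adjusted p = 0.045), and its R5020 effect was 1.11 ± 0.42, close to the direct difference of 1.25. S100A2, a calcium-binding protein, fell by 2.64 with TRL (adjusted p = 0.0079), with an R5020 effect of 1.13 ± 0.61 (0.61 without untreated replicate 2). CRHBP, the binding protein of corticotropin-releasing hormone, fell by 2.61 with TRL (adjusted p = 0.027), with an R5020 effect of 1.39 ± 0.79 (0.71 without TRL replicate 4).

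**Figure D5:**
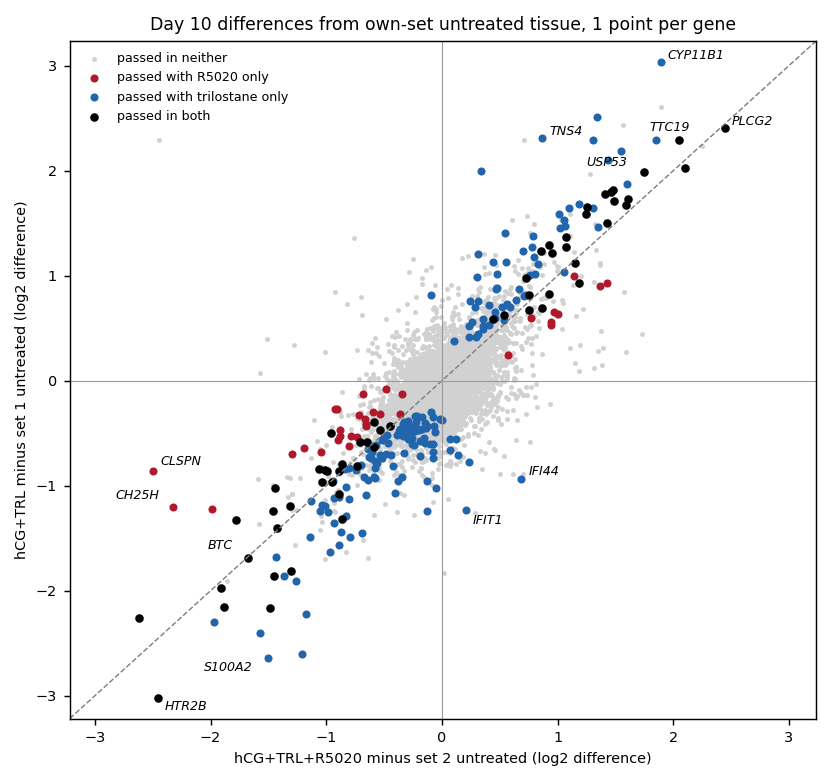
Own-set log2 difference of each of 10290 genes with hCG+TRL+R5020 (x axis) and with hCG+TRL (y axis) at day 10, coloured by whether the gene passed an adjusted p under 0.05 in both (57 genes), with R5020 only (33) or with TRL only (175). Genes that passed in both lie near the dashed line of equal differences, which passing in both favours. CYP11B1, TNS4, IFI44 and IFIT1 lie away from that line.

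At day 15, after 6 days of hCG, R5020 and TRL tissue could be compared within array set 2, with 3 arrays each and no need of untreated tissue. No probe set passed there either (0% called, lowest adjusted p 0.075), and 1334 had an unadjusted p under 0.05 (4.79%), 664 higher (2.38%) and 670 lower (2.41%). Leaving out TRL replicate 2 gave 33 calls and leaving out R5020 replicate 1 gave 25, while leaving out R5020 replicate 3 gave 1. The interferon genes stood the other way there: 3 of 30 were higher with R5020, where 53.4% of all probe sets were, the median was -0.67, and 20 had an unadjusted p under 0.05, all lower. Their mean level was 9.34, 9.20 and 8.87 in the R5020 arrays of set 2 and 9.85, 9.95 and 9.67 in the TRL arrays. The 1 further array of each group, in set 3, read 9.06 for R5020 and 9.02 for TRL. These arrays had been reported as near-identical and were left out of the comparison for that reason. They therefore cannot show whether the groups differed. IFIH1 read 9.29, 8.95 and 8.61 with R5020 against 9.93, 9.84 and 9.55 with TRL, without overlap.

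The difference between the R5020 effects of day 10 and day 15 was tested over all probe sets. It was 1.83 ± 0.32 for IFIH1, with an adjusted p of 0.10, and no probe set passed (0% called), although 1151 had an unadjusted p under 0.05 (4.13%), and 24 of the 30 interferon genes did. Leaving out TRL replicate 2 of day 15 gave 2 calls. The 3 matrix genes named above kept their sign at day 15: LAMB1 was at 0.70 ± 0.21, LAMA2 at 0.53 ± 0.21 and LOX at 0.95 ± 0.26. LAMB1 read 10.10, 11.09 and 10.81 with R5020 against 9.73, 10.05 and 10.14 with TRL, where the R5020 arrays overlapped the TRL arrays by their lowest value. SPON2 read 10.29, 10.97 and 10.59 with R5020 against 9.18, 9.64 and 8.95 with TRL without overlap, a difference of 1.36 ± 0.35 (adjusted p = 0.27). The matrix list had 23 of 29 genes higher with R5020 at day 15, where 53.4% of all probe sets were, with a median of 0.32. At an unadjusted p under 0.05, 12 were higher and 1 lower, against 2.38% and 2.41% of probe sets. The MHC class II list, which had been mostly positive at day 10, had none of 8 genes higher at day 15 and a median of -0.91, and macrophage markers had none of 12 and a median of -0.84. Of the progestin and glucocorticoid list, 19 of 27 genes were higher with R5020 at day 15, with a median of 0.18, and 7 had an unadjusted p under 0.05, all higher, against 2.38% of probe sets.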

How the data were processed

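Each sample's total RNA was measured on 1 Affymetrix Rhesus Genome array. The values the authors deposited are log2 intensities per probe set, and how the authors corrected, summarized and normalized them is not given in the sources used here. Of 52865 probe sets, 158 control or reporter probe sets were left out, and 27850 were kept for a value over 6.20 (the median over all probe sets and arrays) on 4 or more of the 16 arrays. The R5020 effect is the R5020 mean minus its own-set untreated mean, minus the same for TRL. Each array was centred on its median (6.14 to 6.32 before). Of the kept probe sets, 17162 had 1 symbol, 233 several and 10455 none. The platform annotation names 24969 probe sets with 1 symbol, of which 24629 matched the RefSeq gene table (T2T-MMU8v2.0) by Entrez ID. Where a gene had several kept probe sets, the one with the highest mean stood for it. Genome positions and sequences were not used here.

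Tests were limma 3.58.1 (R 4.3.3, lmFit, eBayes with a mean-variance trend, two-sided, 1 mean per group and array set, 12 residual degrees of freedom, median residual SD 0.203). Adjusted p-values are Benjamini-Hochberg over all kept probe sets. Day 15 and hCG-alone comparisons came from a fit of all 33 arrays. For arrays, their number limits the precision. The closest pair of arrays differed by an SD of 0.318 over probe sets (median of 120 pairs 0.454, correlation of the pair 0.982). It was TRL replicate 1 and R5020 replicate 3, which belong to different groups and array sets. The next pair was R5020 replicates 2 and 3, at 0.325. No array was taken as a duplicate, and why the closest pair crossed the groups was not tested. The label of R5020 replicate 3 holds a code that differs from that in the other labels, and its meaning was not worked out. That array was kept in its labelled group.

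Members, gene lists and tests were chosen with earlier results of these data known. Named are, by rule, the 12 largest effects per direction with an unadjusted p under 0.05 and no overlap of own-set differences, up to 3 genes per list with the smallest p, 10 steroid-related genes, and the 6 largest per direction that passed in both or in 1 own-set comparison. The text uses 71 of them. The 23 gene lists and 10 marker lists are from general knowledge. List medians are descriptions with no test.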

Additional observations from a re-analysis of the deposited data

Results flagged for a closer look

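Among 284 groups of 4 arrays examined (the 71 named genes in 4 groups each), 10 held an array whose gap to the nearest other array was large for the group's range by Dixon's criterion, which chance meets in about 1 of 20 groups. FKBP5 was 8.90 in R5020 replicate 3, against 7.52 to 7.67 in the other R5020 arrays, and 7.61 in TRL replicate 2, against 8.33 to 8.40 in the other TRL arrays. FOS was 10.04 in TRL replicate 2, against 7.94 to 8.15. KLF15 was 9.41 in R5020 replicate 1, against 8.79 to 8.87. SCIN was 5.67 in TRL replicate 3, against 6.47 to 6.56. In untreated tissue, LAMB1 was 10.26 in replicate 4, against 10.71 to 10.78, and SLC22A16 was 6.75 in the same array, against 5.43 to 5.58. MAMU-DRA was 12.22 in untreated replicate 7, against 11.20 to 11.30. STK26 was 7.71 in untreated replicate 2, against 8.82 to 9.04. TTC19 was 11.14 in untreated replicate 3, against 9.32 to 9.60.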

How the results depend on the processing

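No alternative gave a probe set past an adjusted p under 0.05 for the R5020 effect at day 10, and leaving out each array gave 0 to 0 calls, with 812 to 1639 unadjusted. Replicate numbers did not pair the treated arrays (correlations of deviations -0.06, 0.06, -0.07 and 0.14, and 1 of 4 arrays matched best with its own number). With the replicate block the effect had 0 calls and 1046 unadjusted, and day 15 had 0 calls. With the additive fit of 33 arrays, calls against own-set untreated tissue were 371 with R5020 and 845 with TRL. With no filter they were 139 with R5020, and day 15 had 6, the trilostane effect 2 and the difference between days 1. Untreated set 2 against set 1 had 790 calls without centring and 577 after quantile normalization. With each array left out, calls were 62 to 409 with R5020, 212 to 722 with TRL, 462 to 2151 between untreated sets, 0 to 33 at day 15, 0 to 75 for the trilostane effect and 0 to 2 for the difference between days. Of 71 named genes, 16 turned sign under a setting other than the direct comparison, and the cause was not tested. With the additive fit NR3C1 was -0.0083, PLCG2 -0.43 and SYTL3 -0.27. With array set as a random block BTC was -0.021, DHCR7 0.018, OPN3 0.20, PER1 0.11, PLAUR 0.18, PLCG2 -0.10, SREBF2 0.020 and SYTL3 -0.036. In the direct comparison ADM was 0.13, ALAS1 0.051, BTC -0.041, DHCR7 0.35, MAMU-DRA -0.033, NR4A1 0.073, OPN3 0.51, PARP15 -0.036, PER1 0.40, PLAUR 0.32, PLCG2 -0.18, SFRP1 0.18, SREBF2 0.21 and SYTL3 -0.10. Without centring BTC was -0.0028 and NR3C1 -0.0046. After quantile normalization NR3C1 was -0.049, PLCG2 -0.029 and SYTL3 -0.042. With each array left out, values that crossed 0 ran from -0.34 to 0.22 for ALAS1, -0.30 to 0.30 for BTC, -0.37 to 0.16 for FKBP5, -0.26 to 0.018 for HSD3B2, -0.068 to 0.088 for NR3C1, -0.76 to 0.0047 for OPN3, -0.023 to 0.21 for PGRMC1, -0.32 to 0.21 for PLAUR, -0.46 to 0.53 for PLCG2, -0.28 to 0.42 for SPHKAP, -0.0037 to 0.055 for STAR, -0.20 to 0.55 for SYTL3 and -0.66 to 0.070 for TTC19. The R5020 and TRL arrays of day 10 lie in different array sets, so a set effect that treated and untreated tissue do not share cannot be told apart from R5020.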
